A study of Macaca mulatta with 7 samples.

Results

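Lumbar spinal cord taken 7 days after a complete thoracic transection was compared with lumbar cord of an uninjured rhesus monkey, by single-nucleus RNA sequencing. The lumbar tissue lies well below the cut and was itself spared, so the comparison asks what differs in cord that lost its supraspinal connections without being struck. The nuclei compared were those of the lumbar library at 7 days post injury (dpi) and of the lumbar library at 0 dpi with at least 1000 UMIs (unique molecular identifiers, each standing for 1 captured transcript) and over 500 genes. These were 9596 nuclei at 7 dpi and 11408 nuclei of the intact cord, 21004 of the 67087 nuclei that met the same rule in the 7 libraries of the series. Intact cervical (9685 nuclei) and intact thoracic (11582 nuclei) cord served only as the range of intact libraries.

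Each library came from 1 adult female animal. The 3 intact segments were taken from 1 untreated animal aged 5 years, and the lumbar 7 dpi tissue from 1 animal aged 7 years in which a stretch of thoracic cord had been cut and removed. Time after injury, animal, age and library preparation therefore coincide and cannot be told apart, and no test between the groups is possible. The 3 intact segments show the spread between segments of a single animal, not the spread between animals. Intervals below are 95% intervals that cover counting error only: Clopper-Pearson for shares, Newcombe for their differences, and exact conditional binomial for ratios. A gene was called higher or lower where the log2 ratio of CPM + 1 (counts per 1e6 UMIs of the class in that library, with 1 added) was at least 1 in either direction and the 7 dpi value lay outside the range of the 3 intact libraries. Ratios printed for single genes are of CPM with nothing added, followed by their interval.

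The 7 dpi library held 86343941 UMIs and the intact lumbar library 150987900, with medians of 4991.5 and 6377.5 UMIs per nucleus. The 2 lumbar libraries shared 33 barcodes. After removal of the 5% of nuclei with the highest doublet scores, 9116 and 10838 nuclei remained. HOXC9, a patterning gene of caudal cord, checked the labelled level: its level in neuron-like nuclei was 1.90 CPM in intact cervical, 14.9 in intact thoracic, 20.6 in intact lumbar and 23.2 in the 7 dpi library. HOXC9 does not separate thoracic from lumbar cord by much. HOXC10, which is expressed further down the cord, was at 0.0205, 0.470, 2.93 and 1.41 CPM in that order, and HOXD10 at 0, 0, 2.16 and 0.776 CPM. The 7 dpi library thus lay between intact thoracic and intact lumbar for both, and whether the 2 lumbar samples came from the same level was not tested. All 8 lumbar position genes together came to 1.94, 15.7, 29.5 and 26.8 CPM.

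Microglia are the resident macrophages of the cord and can proliferate locally after an axon tract is interrupted. Astrocytes take up transmitter and buffer water and ions, and become reactive with raised GFAP. Oligodendrocytes make myelin and arise from oligodendrocyte precursor cells (OPCs), which divide throughout adult life. Nuclei were assigned to these classes from marker genes of their clusters and are called microglia-like, astrocyte-like and so on.

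Microglia-like nuclei made up 38.1% (37.1 to 39.1) of the 7 dpi library against 18.0%, 22.9% and 19.2% of intact cord at cervical, thoracic and lumbar level. The difference from intact lumbar was 18.8 percentage points (17.6 to 20.1), and the 7 dpi share lay above all 3 intact shares. Astrocyte-like nuclei made up 1.08% of the 7 dpi library, which is 98 nuclei, against 9.92%, 15.8% and 9.04%, a difference of -7.97 points (-8.55 to -7.39). OPC-like nuclei made up 4.07% against 7.54%, 13.3% and 6.82%, a difference of -2.75 points (-3.37 to -2.12). Ependymal-like nuclei, the lining of the central canal, made up 0.351% against 0.728%, 0.982% and 2.94%. Astrocyte-like, OPC-like and ependymal-like shares at 7 dpi were thus each below every intact segment.

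Shares of the other named classes lay within the range of the intact segments, but each differed from intact lumbar. Neuron-like nuclei made up 12.4% at 7 dpi against 25.0% in intact lumbar, a difference of -12.7 points (-13.7 to -11.6). The intact range of this class was wide, with 12.3% in intact cervical and 6.77% in intact thoracic. Oligodendrocyte-like nuclei made up 41.5% at 7 dpi, against 32.2% in intact lumbar but 47.6% in intact cervical. Their difference from intact lumbar was 9.35 points (8.01 to 10.7). T cell-like nuclei made up 0.581% at 7 dpi, which is 53 nuclei, against 0.157% in intact lumbar and 1.11% in intact thoracic. Their difference from intact lumbar was 0.425 points (0.259 to 0.612). Shares of 1 library add up to the whole, so a higher share of one class can lower the others without any change in their numbers. Counts set against another class differ as well. Astrocyte-like and oligodendrocyte-like nuclei numbered 98 and 3787 at 7 dpi, against 980 and 3489 in intact lumbar. How much of any difference in share arose from the other classes was not tested.

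**Figure D1:**
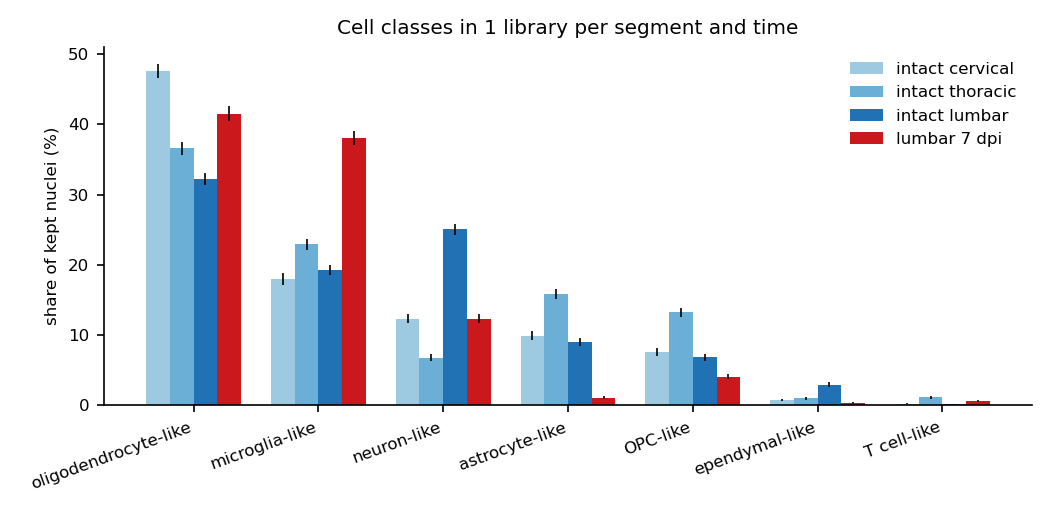
Share of kept nuclei (%) in 7 named classes for the 3 intact segments (blue) and the lumbar 7 dpi library (red); bars are 1 library each and error bars are 95% Clopper-Pearson intervals for counting error only. The microglia-like share of 38.1% stands above all intact bars and the astrocyte-like share of 1.08% below them.

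Microglia-like, astrocyte-like, OPC-like and oligodendrocyte-like nuclei all differed from intact lumbar in far more genes than neuron-like nuclei did. In microglia-like nuclei 837 of 10226 considered genes were called higher at 7 dpi (8.19%) and 487 lower (4.76%). In oligodendrocyte-like nuclei 529 of 9814 were higher (5.39%) and 160 lower (1.63%), and in OPC-like nuclei 512 of 9031 were higher (5.67%) and 136 lower (1.51%). In astrocyte-like nuclei, with 98 nuclei at 7 dpi, 584 of 6276 were higher (9.31%) and 240 lower (3.82%). In neuron-like nuclei 122 of 11226 were higher (1.09%) and 53 lower (0.472%). A gene was considered where its mean CPM over both lumbar libraries was at least 5, so a gene under 5 CPM in intact lumbar could enter only through its 7 dpi level and then had to stand higher. In the same way a gene under 5 CPM at 7 dpi could enter only through intact lumbar and had to stand lower. Counts and medians of list members are therefore descriptions, and the split is given beside the counts it bears on most.

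The size of these counts can be set beside the differences between intact segments. A difference of 2-fold or more from intact lumbar was seen at 7 dpi for 13.1% of considered genes in microglia-like, 7.03% in oligodendrocyte-like, 7.60% in OPC-like, 14.4% in astrocyte-like and 1.58% in neuron-like nuclei. Intact cervical differed from intact lumbar by that much for 1.44%, 0.153%, 1.40%, 1.13% and 0.214% of the same genes, and intact thoracic for 1.44%, 0.408%, 1.37%, 6.99% and 0.401%. In the astrocyte-like class the thoracic segment alone thus came to 6.99%.

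The direction of the calls depended in part on the scaling. With median-of-ratios scaling in place of the class total, the share of calls that were higher went from 76.8% to 64.7% in oligodendrocyte-like nuclei and from 79.0% to 68.1% in OPC-like nuclei. The median log2 ratio over all considered genes was 0.13 in the former class and 0.12 in the latter, and list values there should be read against these. How much RNA released from other cells entered a class was not measured. Where genes were kept only if their class had at least 0.2 of the CPM of the class in which the gene was highest, 336 higher and 105 lower genes remained in oligodendrocyte-like nuclei, 699 and 335 in microglia-like, 389 and 116 in OPC-like, 524 and 213 in astrocyte-like, and 88 and 42 in neuron-like nuclei. Genes meeting this level are called own-class genes below. The highest class is here and below the highest of the named classes. Vessel cells, fibroblasts and other nuclei left unnamed were not compared.

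**Figure D2:**
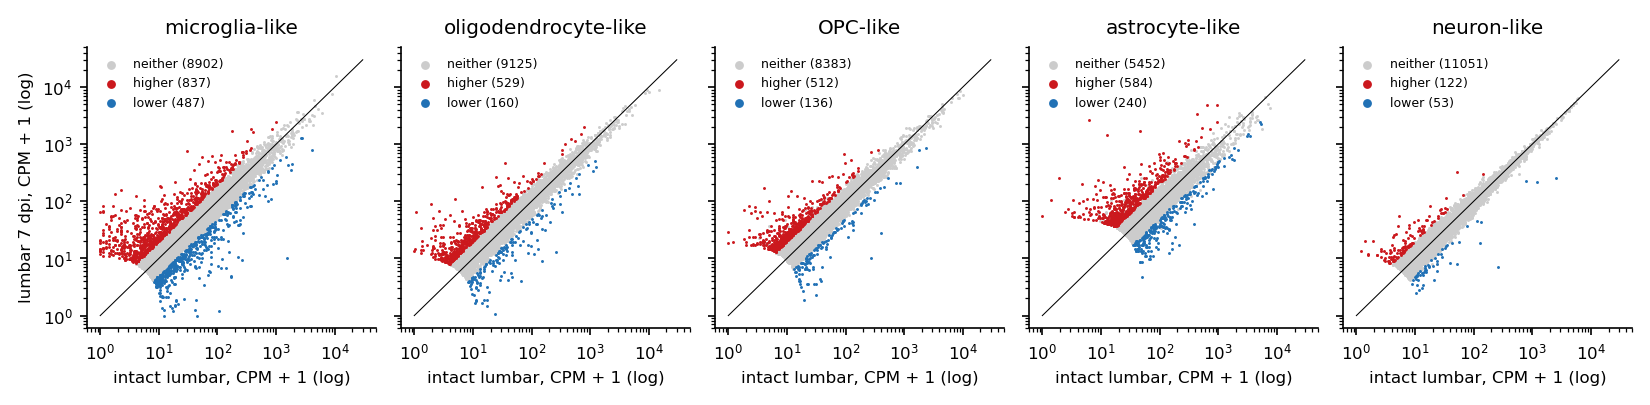
Each considered gene by its level in the intact lumbar library (x axis, CPM + 1, log scale) and in the lumbar 7 dpi library (y axis, CPM + 1, log scale), 1 panel per class, with genes called higher in red, lower in blue and neither in gray. Called genes number 837 and 487 in microglia-like nuclei but 122 and 53 in neuron-like nuclei.

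Microglia-like nuclei of the 7 dpi library lay almost wholly in other clusters than those of the intact cord. A cluster led by MRC1 and CALCR held 85.0% of the intact lumbar microglia-like nuclei but only 2 of 3470 at 7 dpi, where a cluster led by ABCA4, SLC11A1, STING1 and APOC1 held 84.9% and a cluster led by MKI67, MELK and TOP2A held 12.8%. The last held 0 nuclei of intact lumbar, 0 of intact cervical and 8 of intact thoracic cord. Libraries were clustered without integration, a step that aligns libraries with each other. Other microglia-like clusters also came mostly from 1 library, such as 4146 of 4532 nuclei from 14 dpi and 2138 of 2263 from 30 dpi. The cluster led by ABCA4 held 923 nuclei of the 6 month library as well. The part of animal and library in this separation was not tested. The 8 marker genes by which clusters were named microglia-like together came to 7058, 7024 and 7176 CPM in intact cord (cervical, thoracic, lumbar) and 7585 CPM at 7 dpi, and 0 were called. Their median log2 ratio was -0.53. APBB1IP, DOCK8 and C3 were higher in value and the other 5 lower, so the sum rests on a few abundant genes.

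Genes of the G2 and M phases of the cell cycle gave the clearest group difference in microglia-like nuclei. Of 22 considered members 21 were higher and 0 lower, with a median log2 ratio of 3.95, beside 8.19% of all considered genes higher. MKI67, the proliferation antigen that coats mitotic chromosomes, was at 0.140, 1.70 and 0 CPM in intact cord at cervical, thoracic and lumbar level and at 64.9 CPM at 7 dpi. Against a floor of 3 UMIs in the intact lumbar library this was at least 158-fold higher, and the interval of the log2 ratio, which allows more UMIs for a count of 0 than that floor, began at 7.01. CDK1, the kinase that drives entry into mitosis, was likewise at 0 UMIs in intact lumbar and at 17.8 CPM at 7 dpi, at least 43.6-fold higher. The list median was 3.95 also with both genes set at these bounds. Of the 22 members 16 were under 5 CPM in intact lumbar and entered through their 7 dpi level, and of the other 6 members 5 were higher. All 22 summed to 113, 126 and 105 CPM in the intact segments and 1080.0 CPM at 7 dpi.

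TOP2A, which untangles replicated DNA, was at 0.140, 2.42 and 0.682 CPM in the intact segments and at 80.2 CPM at 7 dpi, a log2 ratio of 6.88 (5.65 to 8.50). DIAPH3, a formin of the contractile ring, was at 1.82, 5.65 and 1.23 CPM and at 159 CPM, a log2 ratio of 7.02 (6.09 to 8.15). The intact values of both genes lay far below the 7 dpi value. MELK, a mitotic kinase, and KIF4A, a chromosome motor, each had a single UMI in intact lumbar and were at 67.6 and 62.8 CPM at 7 dpi, with log2 ratios of 8.95 (6.47 to 14.26) and 8.85 (6.36 to 14.15). CCNA2, cyclin A, was the considered member not called, at 6.01 CPM in intact lumbar and 10.2 CPM at 7 dpi.

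S phase genes differed less. Of 14 considered members 10 were higher and 0 lower, with a median of 1.37, beside 8.19% of all considered genes higher. Of the 9 members at 5 CPM or more in intact lumbar 5 were higher. All 16 members summed to 268, 285 and 243 CPM in the intact segments and 653 CPM at 7 dpi. RRM2, a subunit of ribonucleotide reductase, was at 0, 0.449 and 0.136 CPM in the intact segments and 29.9 CPM at 7 dpi. BRIP1, a helicase of replication-coupled repair, was at 4.34, 7.62 and 2.87 CPM and at 55.7 CPM, a log2 ratio of 4.28 (3.66 to 4.98). The replicative helicase subunits MCM4 (5.19 to 20.6 CPM) and MCM6 (9.42 to 26.5 CPM) were called higher as well, and MCM5 (6.01 and 7.74 CPM) and MCM7 (10.2 and 13.4 CPM) were not called.

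To compare nuclei of unequal depth, each was thinned to 1000 UMIs and counted where at least 2 genes of a list had a UMI. For G2 and M phase genes this was 9.11% (8.17 to 10.1) of microglia-like nuclei at 7 dpi, against 0.605%, 0.595% and 0.288% in the 3 intact segments (cervical, thoracic, lumbar). Without thinning the 2 lumbar values were 18.6% and 4.13%. In neuron-like nuclei, which do not divide, the thinned share was 0.444% at 7 dpi and 0.516% in intact lumbar. The microglia-like share at 7 dpi lay above every intact library and above the neuron-like share. When the cluster led by MKI67 was left out, 652 genes were higher and 485 lower in microglia-like nuclei, and 0 of the G2 and M phase and 2 of the S phase members were called higher. Genes of these lists were among those that define that cluster. The 14 interferon and 11 lipid and lysosome genes described next kept their counts without that cluster.

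The promoters of these members were searched for 2 short motifs known from cell cycle genes, TTTGAA (the core of the cell cycle genes homology region) and CCAAT (the letters that NF-Y binds), on both strands, from 250 bases before to 50 bases after the RefSeq gene start in Mmul_10. Of the 21 higher G2 and M phase genes 12 held TTTGAA (57.1%), 15 held CCAAT (71.4%) and 9 held both (42.9%). Of all 20751 protein-coding promoters 14.2% held TTTGAA, 34.7% CCAAT and 5.74% both. Of the 10 higher S phase genes 1 held TTTGAA and 6 held CCAAT. The motifs are known from cell cycle genes and the list is made of such genes, so these shares describe the list. The 150 bases upstream are shown for the 4 called G2 and M phase genes with the highest lower bound of the log2 ratio. Motifs are in capitals (TTCAAA and ATTGG are the same letters on the other strand, and neighbouring motifs can overlap).
MKI67 (chr9:128554145-128554294, minus strand): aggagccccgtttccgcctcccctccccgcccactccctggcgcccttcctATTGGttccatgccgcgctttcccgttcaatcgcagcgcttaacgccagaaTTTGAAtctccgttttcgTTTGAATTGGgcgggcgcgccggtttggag
TOP2A (chr16:51571946-51572095, minus strand): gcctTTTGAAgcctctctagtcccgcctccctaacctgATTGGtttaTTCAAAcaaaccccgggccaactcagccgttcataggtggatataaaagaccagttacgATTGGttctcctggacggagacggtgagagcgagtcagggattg
DIAPH3 (chr17:38841792-38841941, minus strand): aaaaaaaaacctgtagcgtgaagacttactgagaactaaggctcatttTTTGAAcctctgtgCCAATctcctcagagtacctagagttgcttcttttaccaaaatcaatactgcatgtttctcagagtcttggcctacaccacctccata
CDK1 (chr9:77210912-77211061, minus strand): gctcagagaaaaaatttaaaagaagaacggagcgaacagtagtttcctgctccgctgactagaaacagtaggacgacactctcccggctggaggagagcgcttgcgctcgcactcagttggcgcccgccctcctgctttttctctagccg
MKI67 and TOP2A each held 4 matches in this stretch, DIAPH3 2 and CDK1 0. All 4 held both motifs somewhere in the longer window, those of CDK1 lying outside the stretch shown. A match describes the letters and not a bound site.

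Genes induced by interferon, which cells switch on when they sense viral or self nucleic acid, were higher in microglia-like nuclei for 14 of 20 considered members and lower for 0, with a median log2 ratio of 1.79. Over all considered genes of the class 8.19% were higher and 4.76% lower. Of the 14 members at 5 CPM or more in intact lumbar 8 were higher, and all 22 members found summed to 1053, 1039 and 1029 CPM in the intact segments and 2123 CPM at 7 dpi. MX1, an antiviral GTPase, was at 45.9, 38.1 and 39.7 CPM in the intact segments and at 199 CPM at 7 dpi, a log2 ratio of 2.32 (2.15 to 2.50). USP18, which trims the ubiquitin-like ISG15 from proteins and damps the receptor, was at 5.04, 2.42 and 3.28 CPM and at 37.3 CPM, a log2 ratio of 3.51 (2.92 to 4.16). Neither gene overlapped the intact range. Thinned to 1000 UMIs, 40.1% of microglia-like nuclei at 7 dpi had at least 2 genes of the list, against 21.8%, 23.1% and 22.0% in the intact segments (84.2% and 66.4% unthinned in the 2 lumbar libraries).

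Lipid handling and lysosomal genes, which mark macrophages that clear myelin debris, were higher for 11 of 24 considered members and lower for 0, with a median of 0.80. The shares over all considered genes of the class were 8.19% higher and 4.76% lower. Of the 24 members 2 entered through their 7 dpi level, and of the other 22 members 9 were higher. APOC1, a small apolipoprotein, was at 59.2, 40.0 and 54.2 CPM in the intact segments and 605 CPM at 7 dpi, a log2 ratio of 3.48 (3.34 to 3.63). ITGAX, the CD11c integrin, was at 66.2, 96.6 and 68.9 CPM and at 497 CPM, a ratio of 2.85 (2.72 to 2.98). Both were several times above every intact segment. ABCA1, a cholesterol exporter, was at 19.2 CPM in intact lumbar and 92.3 CPM at 7 dpi, and APOE at 129 and 396 CPM. LIPN, a lipase gene among the 5 highest by rule, had a single UMI in intact lumbar and 81.1 CPM at 7 dpi, a log2 ratio of 9.21 (6.73 to 14.52). Several familiar members were not called: SPP1 was at 519.6 and 407 CPM, TREM2 at 17.5 and 29.9 CPM, and TYROBP at 99.5 and 93.0 CPM. FABP5 and CD63, counted among the 11, were lower in microglia-like than in astrocyte-like nuclei at 7 dpi, at 0.12 and 0.23 of the astrocyte-like level, and the part of free RNA in them was not tested.

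Antigen presentation genes were higher for 4 of 9 considered members and lower for 0, beside 8.19% of all considered genes higher and 4.76% lower. CD74, the invariant chain of class II molecules, was at 307, 248 and 404 CPM in the intact segments and 1638 CPM at 7 dpi, a log2 ratio of 2.02 (1.96 to 2.07). CIITA, the master activator of class II genes, was at 52.1 and 132 CPM, and MAMU-DRA, a class II chain, at 157 and 483 CPM. B2M, the light chain of class I, was also called, at 92.3 and 214 CPM. CD86, a costimulator, was at 463 CPM in intact lumbar and 233 CPM at 7 dpi, just short of the 2-fold rule. Class II genes of the macaque are near-identical copies, so the split of UMIs among MAMU genes is uncertain, and 6 of the 16 listed symbols were not found as spelled. Among these MAMU-DPA1 is in the data as Mamu-DPA1 and so did not enter the list. Mamu-DPA1 was called lower in OPC-like (35.2 and 3.45 CPM) and neuron-like nuclei (12.1 and 2.08 CPM). In intact lumbar its level was highest in microglia-like nuclei, with OPC-like nuclei at 0.992 and neuron-like nuclei at 0.341 of that level. Its microglia-like value at 7 dpi is not given here, and the part of microglial RNA in the lower values was not tested. Complement C1QA, C1QB and C1QC were not called (138 and 88.5, 112 and 77.3, and 76.0 and 70.2 CPM), while ITGB2, the shared chain of the complement receptors, was at 34.8 and 121 CPM.

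Homeostatic microglial genes were mostly lower in value without passing the 2-fold rule. Of 12 considered members 2 were called lower and 0 higher, with a median of -0.59, beside 4.76% of all considered genes lower and 8.19% higher. In a list this short the count is a description. CDH13, T-cadherin, was at 1025, 1131 and 1514 CPM in the intact segments and 9.08 CPM at 7 dpi, a log2 ratio of -7.38 (-7.63 to -7.14). In the 2 lumbar libraries, intact and 7 dpi, CDH13 was at 636 and 682 CPM in OPC-like, 561 and 486 CPM in neuron-like and 24.1 and 31.6 CPM in astrocyte-like nuclei, where it was not called, and at 149 and 31.6 CPM in oligodendrocyte-like nuclei, where it was called lower. GPR34, a lysophospholipid receptor, was at 494, 349.9 and 589 CPM and at 166 CPM, a ratio of -1.83 (-1.90 to -1.76). P2RY12, the nucleotide receptor of resting microglia, was at 1276 CPM in intact lumbar and 649.5 CPM at 7 dpi, CSF1R at 705 and 367 CPM, and CX3CR1 at 431 and 276 CPM. MEF2C was at 4027 and 3267 CPM.

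Perivascular macrophage genes split. MRC1 (453 to 734 CPM in the intact segments, 100.1 CPM at 7 dpi), CD163 (413 to 809 and 109 CPM) and LYVE1 (3.22 to 15.8 and 0.384 CPM), receptors of border macrophages, were lower. F13A1, a clotting factor chain, was higher, at 53.6, 57.3 and 50.6 CPM in the intact segments and 211 CPM at 7 dpi. SIGLEC1, a sialic acid receptor that interferon induces, was also higher, at 1.54, 1.88 and 0.682 CPM and at 19.9 CPM. LYVE1 entered through intact lumbar and SIGLEC1 through its 7 dpi level. Markers of blood myeloid cells, 7 genes with 2 considered, were summed at 27.6, 25.4 and 34.4 CPM in the intact segments and 35.2 CPM at 7 dpi. Of the 2 genes 0 were called, beside 8.19% of all genes of the class higher and 4.76% lower, which is a description. A cluster with FN1, S100A4, FGR and MS4A1 among its leading genes was left unnamed and is not in this class. It held 15, 39 and 21 nuclei of intact cervical, thoracic and lumbar cord and 43 at 7 dpi. Astrocyte markers in microglia-like nuclei summed to 137, 140 and 104 CPM and to 197 CPM. Endothelial markers summed to 803, 850 and 829 CPM and to 1524 CPM, mostly as VWF (795 and 1389 CPM in the lumbar libraries). For VWF this class was the highest of the named classes only. A cluster with EMCN, CLDN5 and FLT1 among its leading genes (40 nuclei in intact lumbar, 8 at 7 dpi) was left unnamed and not compared. CLDN5, the defining junction protein of vessels, was at 0.819 and 0.256 CPM in microglia-like nuclei. FLT1 and PECAM1 of that list were called higher (15.2 and 77.1, and 16.2 and 56.4 CPM), and the part of vessel cells in them was not tested.

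Of 10 considered chemokine and cytokine genes 4 were lower and 1 higher, with a median of -0.45, beside 4.76% of all genes lower and 8.19% higher in the class. CXCL8 entered through intact lumbar, and of the other 9 members 3 were lower. IL1B, a pyrogenic cytokine, was at 205, 113 and 226 CPM in the intact segments and 36.8 CPM at 7 dpi, a log2 ratio of -2.62 (-2.76 to -2.48). CXCL8, a neutrophil chemokine, was at 59.9, 91.8 and 66.6 CPM and at 4.16 CPM, a ratio of -4.00 (-4.40 to -3.63). CCL3 and IL18 were lower too and CCL8 higher, while TNF, at 39.6 and 56.6 CPM in the lumbar libraries, stayed within the intact range. Of 9 considered immediate early genes 6 were lower and 0 higher, with a median of -2.55. NR4A3 and ATF3 entered through intact lumbar, and of the other 7 members 4 were lower. All 13 members found summed to 274, 593 and 689 CPM in the intact segments and 189.8 CPM at 7 dpi. The orphan receptor NR4A3 was at 19.0, 81.4 and 171 CPM in the intact segments, cervical to lumbar, and at 3.96 CPM at 7 dpi, so that the intact segments differed among themselves as well. A cluster led by NR4A3, NR4A2 and CXCL8 held 286 nuclei of intact lumbar, 148 of intact thoracic, 82 of intact cervical and 0 of the 7 dpi library. FOS (69.6 and 57.8 CPM) and JUN (35.5 and 70.5 CPM) were not called.

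Glucocorticoid response genes were lower for 6 of 9 considered members and higher for 1, beside 4.76% of all genes lower and 8.19% higher in microglia-like nuclei. ERRFI1 entered through intact lumbar, and of the other 8 members 5 were lower. FKBP5, a chaperone that feeds back on the glucocorticoid receptor, was at 3533, 2788 and 4095 CPM in the intact segments and 802 CPM at 7 dpi, a log2 ratio of -2.35 (-2.38 to -2.32). KLF9 was at 56.9 and 12.98 CPM, and PER1 at 73.0 and 29.8 CPM. The member called higher was MT2A, a metallothionein, whose microglia-like level at 7 dpi was 2.96% of the astrocyte-like level.

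Cholesterol synthesis genes were lower for 9 of 16 considered members in microglia-like nuclei and higher for 0, with a median of -1.25. The shares over all genes of the class were 4.76% lower and 8.19% higher. SQLE, squalene epoxidase, was at 83.7, 79.9 and 85.0 CPM in the intact segments and 20.8 CPM at 7 dpi, a log2 ratio of -2.03 (-2.23 to -1.83). HMGCS1, an early enzyme of the path, was at 67.5, 81.8 and 84.9 CPM and at 22.6 CPM. For SQLE the 3 intact values lay within a few CPM of each other. SREBF2, the transcription factor that drives the path, was at 254 and 175 CPM and was not called. Other microglial genes among the 5 lowest by rule were KLRF2, a lectin-like receptor (40.7 and 0.256 CPM), ROR2, a Wnt receptor (171 and 3.64 CPM), and SYDE2 (16.1 and 0.192 CPM).

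**Figure D3:**
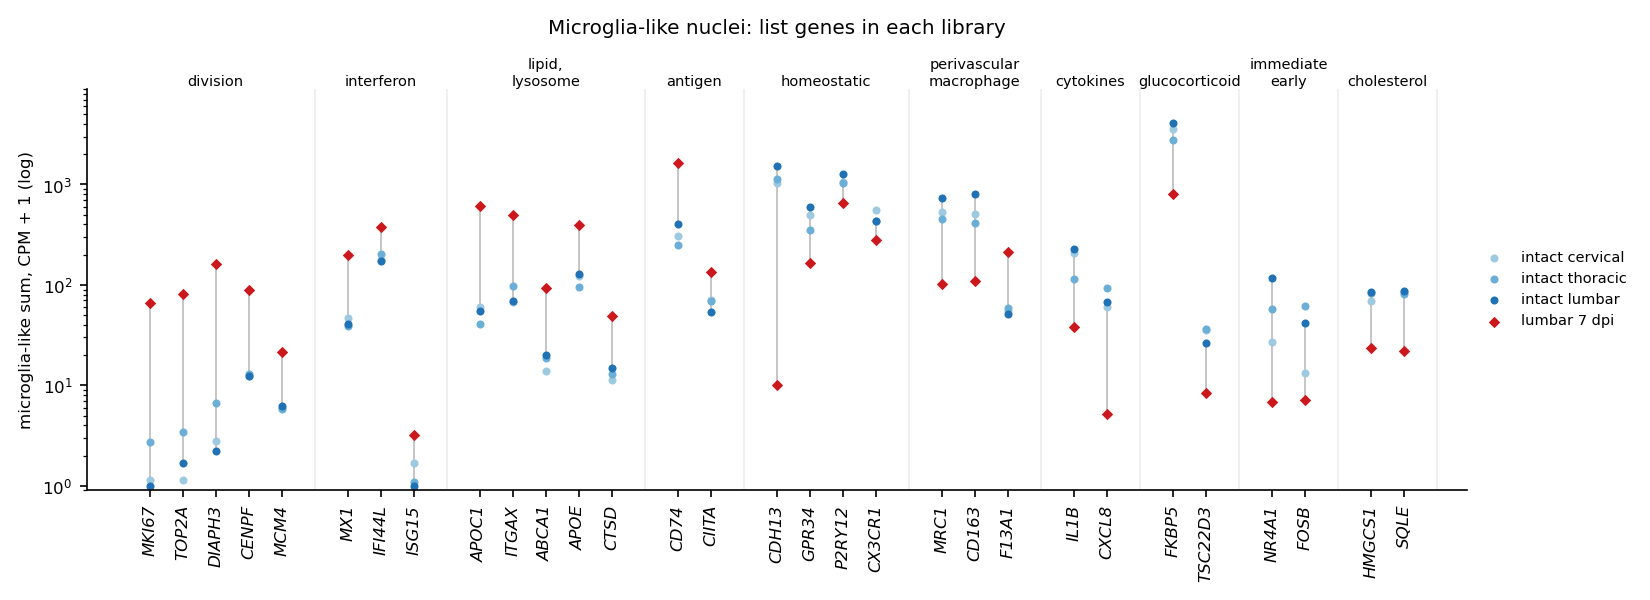
Level of chosen list genes in microglia-like nuclei (CPM + 1, log axis) in the 3 intact libraries (blue circles) and the lumbar 7 dpi library (red diamonds), with a gray line joining the 2 lumbar values. The 7 dpi diamonds stand above the intact circles for MKI67 (64.9 CPM), MX1 and APOC1, and below them for CDH13, MRC1, IL1B, FKBP5 and SQLE. Members of the same lists that were not called, such as SPP1, TREM2, TYROBP, TNF, FOS and JUN, are not shown.

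Astrocyte-like nuclei were few at 7 dpi and carried a reactive profile. Of 12 considered reactive genes 10 were higher and 0 lower, with a median log2 ratio of 2.27 against 0.08 for all considered genes of the class. Of all those genes 9.31% were higher and 3.82% lower. SERPINA3, a secreted protease inhibitor of the acute phase, was at 4.72, 7.40 and 5.34 CPM in the intact segments, cervical to lumbar, and at 2669.5 CPM at 7 dpi, a log2 ratio of 8.97 (8.53 to 9.44). CHI3L1, a secreted chitinase-like protein, was at 8.75, 6.14 and 11.8 CPM and at 1441 CPM, a ratio of 6.93 (6.62 to 7.25). GFAP, the astrocyte intermediate filament, was at 1199.5, 1261 and 938 CPM and at 4846 CPM, a ratio of 2.37 (2.31 to 2.43). All 3 intact values lay far below the 7 dpi value in each case.

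VIM, another intermediate filament, was at 4.61, 9.06 and 6.99 CPM in the intact segments and 183 CPM at 7 dpi. The matrix protein TNC (73.8 and 312 CPM in the lumbar libraries), the hyaluronan receptor CD44 (276 and 918 CPM) and the metalloprotease inhibitor TIMP1 (2.29 and 106 CPM) were higher. OSMR (80.8 and 158 CPM) and LIFR (1046 and 708 CPM), receptors for cytokines of the IL-6 family, were not called. MT2A was at 58.6, 37.1 and 45.6 CPM in the intact segments and 1671 CPM at 7 dpi. PAEP (0.889 and 252 CPM), EMP1 (0.381 and 105 CPM) and FABP5, a fatty acid carrier (3.81 and 198 CPM), completed the 5 highest by rule, and EMP1 had 3 UMIs in intact lumbar, with a log2 ratio of 8.10 (6.51 to 10.41).

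Of 12 transport genes of astrocytes 2 were higher and 1 lower (0 to 4 lower under other settings), beside the 9.31% and 3.82% of all genes of the class. AQP4, the water channel, was at 511, 454 and 506 CPM in the intact segments and 1353 CPM at 7 dpi, a log2 ratio of 1.42 (1.32 to 1.52). ATP1B2, a sodium pump subunit, was at 179 CPM in intact lumbar and 414 CPM at 7 dpi. ALDH1L1, a folate enzyme, was lower, at 122 and 51.7 CPM. SLC1A2, the main glutamate transporter, was at 5499 CPM in intact lumbar and 1874 CPM at 7 dpi, but it was at 1368 CPM in intact thoracic cord, so the 7 dpi value lay within the intact range and was not called. SLC6A11, a GABA transporter, gave the same picture, at 442, 179 and 634 CPM in the intact segments and 318 CPM at 7 dpi. The low thoracic values came with another mix of astrocyte-like nuclei. A cluster with ITPRID1 and SLC1A2 among its leading genes held 38.1%, 15.3% and 46.7% of the class in the intact segments. At 7 dpi it held 40.8%, near intact lumbar, so the intact range of these genes also spans a difference in mix. The part of that mix was not tested. In the lists of astrocyte position, 0 of 4 gray matter genes were called, and of 5 white matter genes GFAP and CD44 were higher and VCAN and DPP10 lower.

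Growth-associated genes were higher in astrocyte-like nuclei for 5 of 6 considered members of the regeneration list, beside 9.31% of all genes of the class. GAP43, a growth cone protein, was at 25.1, 18.5 and 24.1 CPM in the intact segments and 399 CPM at 7 dpi, a log2 ratio of 4.05 (3.78 to 4.31). TUBA1A, an alpha tubulin, was at 46.5 and 453 CPM in the lumbar libraries, and TUBB3 at 7.88 and 78.3 CPM. Of 13 lipid and lysosome genes 10 were higher, beside the same 9.31%. Among them were CTSD, a lysosomal protease (16.0 and 82.0 CPM), and CD63 (13.1 and 191 CPM). SPP1 was called as well (10.5 and 119.9 CPM), and the 8 microglia markers were summed at 21.3 CPM in intact lumbar and 179 CPM at 7 dpi in this class, and the part of microglial RNA in SPP1 was not tested. Lower genes by rule were ETNPPL, a lipid enzyme (546, 435 and 617 CPM in the intact segments, 139 CPM at 7 dpi), KCNH7, INSYN2B, IL1RAPL2 and FXYD6.

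Astrocyte genes were also counted in every other class, at levels that differed between genes. The SERPINA3 level at 7 dpi was 64.0 CPM in oligodendrocyte-like, 81.8 in OPC-like, 56.1 in microglia-like nuclei and 19.2 in neuron-like ones, which are 2.40%, 3.07%, 2.10% and 0.718% of the astrocyte-like level. AQP4, an astrocyte gene that these classes are not known to use, stood at 1.06%, 1.85%, 1.17% and 0.420% of its astrocyte-like level there. CD44 differed, at 18.5% of the astrocyte-like level in OPC-like nuclei and 0.743% in oligodendrocyte-like nuclei. Other genes stood higher still against the astrocyte-like level. ALDH1L1 was at 61.6% in OPC-like nuclei, VIM at 29.4% in OPC-like and 23.0% in microglia-like nuclei, and TIMP1 at 19.5% in OPC-like nuclei.

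Of 12 resting precursor genes in OPC-like nuclei 0 were called in either direction, with a median of -0.21. PDGFRA, the growth factor receptor of precursors, was at 941, 848 and 934 CPM in the intact segments and 775 CPM at 7 dpi. Of 9 differentiation genes 0 were called. With 5.67% of all genes higher and 1.51% lower in this class, counts of 0 in lists this short are near the background. GPR17, a receptor of cells committed to become oligodendrocytes, was at 37.3 and 48.7 CPM in the lumbar libraries, and BCAS1 at 983 and 555 CPM.

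Of 9 considered activated precursor genes 7 were higher and 0 lower, with a median of 2.84, beside 5.67% of all genes higher in OPC-like nuclei. Of these 9 genes 5 entered through their 7 dpi level, and of the other 4 genes 2 were higher. All 12 members summed to 204, 207 and 189 CPM in the intact segments and 1284 CPM at 7 dpi. IGFBP3, a secreted binder of insulin-like growth factors, was at 0.359, 0.171 and 0.833 CPM in the intact segments and 68.5 CPM at 7 dpi, a log2 ratio of 6.36 (4.98 to 8.25). This class had the highest level of any named class. CD44 was at 2.33, 3.77 and 3.13 CPM and at 170.2 CPM, a ratio of 5.77 (5.03 to 6.62). VIM was at 2.71 and 53.8 CPM in the lumbar libraries, and GFAP at 94.8 and 684 CPM. Only IGFBP3 and VIM of the 7 met the own-class level, and GFAP in OPC-like nuclei was 14.1% of its astrocyte-like level at 7 dpi and 10.1% in intact lumbar. The part of astrocyte RNA in the other 5 was not tested.

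Division genes were higher in OPC-like nuclei too, for 6 of 9 G2 and M phase genes and 4 of 7 S phase genes, with 0 lower in either list. The shares over all genes of the class were 5.67% higher and 1.51% lower. Of the 9 G2 and M phase genes 5 entered through their 7 dpi level, and of the other 4 genes 1 was higher. All 22 summed to 137, 184 and 169 CPM in the intact segments and 420.4 CPM at 7 dpi. The G2 and M phase count was 2 with each nucleus named alone and 14 without doublet removal. MKI67 was at 0, 5.65 and 1.25 CPM in the intact segments and 22.8 CPM at 7 dpi, a log2 ratio of 4.19 (2.97 to 5.70). BRIP1 was at 1.79, 8.82 and 6.46 CPM and at 35.8 CPM. After thinning, 5.39% (3.32 to 8.20) of OPC-like nuclei had at least 2 G2 and M phase genes at 7 dpi, against 0.576%, 1.37% and 0.677% in the intact segments (18.6% and 14.3% unthinned in the 2 lumbar libraries). A cluster led by ALDH1A3, IGFBP3 and GLDC, with MKI67 among its leading genes, held 71 of 371 OPC-like nuclei at 7 dpi and 10 of 739 in intact lumbar.

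Of 16 considered cholesterol synthesis genes 5 were higher in OPC-like nuclei and 0 lower, beside 5.67% of all genes of the class higher and 1.51% lower. LSS, which closes the sterol ring, was at 21.0, 25.5 and 17.1 CPM in the intact segments and 57.7 CPM at 7 dpi, a log2 ratio of 1.76 (1.35 to 2.17). FDPS was at 24.0 and 60.7 CPM in the lumbar libraries, and MVD at 13.3 and 35.3 CPM. The 18 listed genes, 17 of them found, summed to 631, 797 and 495 CPM in the intact segments and to 825 CPM at 7 dpi, so the list as a whole stood close to intact thoracic and intact lumbar was the lowest segment. HMGCS1 (35.4 and 59.9 CPM) was inside the intact range, since intact thoracic had 93.4 CPM.

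Other OPC genes named by rule were higher HS3ST3A1, a heparan sulfate sulfotransferase (1.46 and 61.2 CPM), COL22A1, a collagen (1.88 and 68.1 CPM), RGS8, a regulator of G protein signaling (3.96 and 101 CPM), and SYNPR, synaptoporin (2.50 and 64.6 CPM). Among the lower genes SYT1, the calcium sensor of synaptic vesicles, was at 314, 446 and 406 CPM in the intact segments and 26.7 CPM at 7 dpi, a log2 ratio of -3.93 (-4.32 to -3.56). In neuron-like nuclei SYT1 was at 1785 CPM in intact lumbar and 1493 CPM at 7 dpi. ACSBG2, SLC26A5, EGLN3 and Mamu-DPA1 made up the remaining lower genes by rule in OPC-like nuclei.

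Of 13 considered myelin genes in oligodendrocyte-like nuclei 0 were called, with a median of 0.01. With 5.39% of all genes higher and 1.63% lower in this class, a count of 0 in 13 is near the background and no result about the list. MBP, a main protein of compact myelin, was at 7722, 8073 and 8458 CPM in the intact segments and 7996 CPM at 7 dpi. MYRF, the transcription factor that maintains myelin genes, was at 256 and 416 CPM in the lumbar libraries. The nuclei lay in other clusters, since 3 clusters held 46.4%, 30.6% and 18.0% of the intact lumbar class and 10, 8 and 2 nuclei at 7 dpi, where 2 others, led by CPB1 and TRPM1 and by PEBP4 and MBOAT1, held 65.9% and 33.4%. Clusters were made without integration, and the part of animal and library in this separation was not tested.

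CMTM8, a membrane protein of the MARVEL family, led the higher genes by rule. It was at 0.605, 0.748 and 0.943 CPM in the intact segments and 88.6 CPM at 7 dpi, a log2 ratio of 6.55 (5.98 to 7.20). ACTN2, an alpha actinin, was at 1.69 and 66.5 CPM in the lumbar libraries, PRPH, the filament peripherin, at 1.26 and 35.4 CPM, and MOV10L1, a helicase known from the germ line, at 3.03 and 56.8 CPM. USP18 had a single UMI in intact lumbar and was at 13.4 CPM at 7 dpi, a log2 ratio of 8.41 (5.92 to 13.72). SMOC2, a matricellular calcium binder, led in level among the lower genes, at 149, 152 and 129 CPM in the intact segments and 13.6 CPM at 7 dpi, a log2 ratio of -3.26 (-3.43 to -3.08). ADAMTSL5, SPATC1L, MASP1 and SLC26A5 were lower as well.

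The list of disease-associated oligodendrocyte genes was higher for 8 of 9 considered members, with a median of 2.63, beside 5.39% of all genes. Of these 9 members 4 entered through their 7 dpi level, and of the other 5 members 4 were higher. All 11 members found summed to 144, 143 and 145 CPM in the intact segments and 962 CPM at 7 dpi. Only CD63 of the 8 met the own-class level, at 9.08 and 51.3 CPM. SERPINA3 was at 0.024 of the level of the highest class, B2M at 0.031, VIM at 0.056, NRXN3 at 0.064, MT2A at 0.065, APOD at 0.078 and UBASH3B at 0.121. KLK6, a myelin-associated protease for which this class was the highest, was at 67.0, 71.8 and 71.9 CPM in the intact segments and 134 CPM at 7 dpi, and was not called. The part of free RNA in these counts was not tested.

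Interferon genes were higher in oligodendrocyte-like nuclei for 9 of 11 considered members and lower for 0, beside 5.39% of all genes of the class higher and 1.63% lower. Of the 9 higher members 2 were own-class genes, USP18 among them. These 11 members are part of 22 found. Of them 7, including MX1 and USP18, entered through their 7 dpi level, and of the other 4 members 2 were higher. All 22 summed to 148, 156 and 134 CPM in the intact segments and 351 CPM at 7 dpi. MX1 was at 1.45 CPM in intact lumbar and 30.2 CPM at 7 dpi. After thinning, 3.75% of nuclei had at least 2 genes of the list at 7 dpi against 0.571%, 0.546% and 0.229% in the intact segments (25.3% and 12.9% unthinned in the lumbar libraries). In OPC-like nuclei 6 of 8 considered members were higher, beside 5.67% of all genes of that class, and 1 of the 6 was an own-class gene. Of the 8 members 4 entered through their 7 dpi level, and of the other 4 members 2 were higher. All 22 members found summed to 146, 152 and 108 CPM in the intact segments and 329 CPM at 7 dpi. The thinned shares were 6.74% at 7 dpi and 0.541% in intact lumbar (34.2% and 11.6% unthinned). IFI44 was at 0 UMIs in intact lumbar OPC-like nuclei and at 27.6 CPM at 7 dpi, at least 44.1-fold higher, a level that is 0.109 of that in ependymal-like nuclei. The part of free RNA in these counts was not tested. In neuron-like nuclei 1 of 9 was higher, HERC6, at 20.3 and 45.0 CPM, beside 1.09% of all genes of that class. A count of 1 in a list this short is a description. The thinned shares there were 1.87% and 0.885% (80.1% and 66.8% unthinned).

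Cholesterol synthesis genes in oligodendrocyte-like nuclei were lower for 3 of 17 considered members (7 with the 3 intact libraries averaged as reference) and higher for 0, with a median of -0.56. HMGCS1 was at 248, 243 and 172 CPM in the intact segments and 57.0 CPM at 7 dpi, a log2 ratio of -1.60 (-1.69 to -1.51). FDFT1 (104 and 42.2 CPM) and SC5D (37.0 and 12.8 CPM), both enzymes of the sterol path, were the others. Of 11 glucocorticoid genes 3 were lower and 2 higher, beside 1.63% and 5.39% of all genes of the class. Both higher members, MT2A and DUSP1, entered through their 7 dpi level, and only DUSP1 was an own-class gene. ZBTB16, a repressor induced by glucocorticoids, was at 447, 431 and 493 CPM in the intact segments and 136 CPM at 7 dpi, a log2 ratio of -1.86 (-1.92 to -1.81). ZBTB16 was lower in OPC-like nuclei also (445 and 178 CPM) and in astrocyte-like nuclei (380.3 and 141 CPM). FKBP5 was called lower in microglia-like, OPC-like (342 and 146 CPM) and astrocyte-like nuclei (808 and 164 CPM), and in oligodendrocyte-like nuclei it was at 189.6 and 97.5 CPM. Outside microglia-like nuclei it was below the own-class level, at 0.084 of the microglia-like level in OPC-like and 0.197 in astrocyte-like nuclei, and the part of free RNA in these lower values was not tested.

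**Figure D4:**
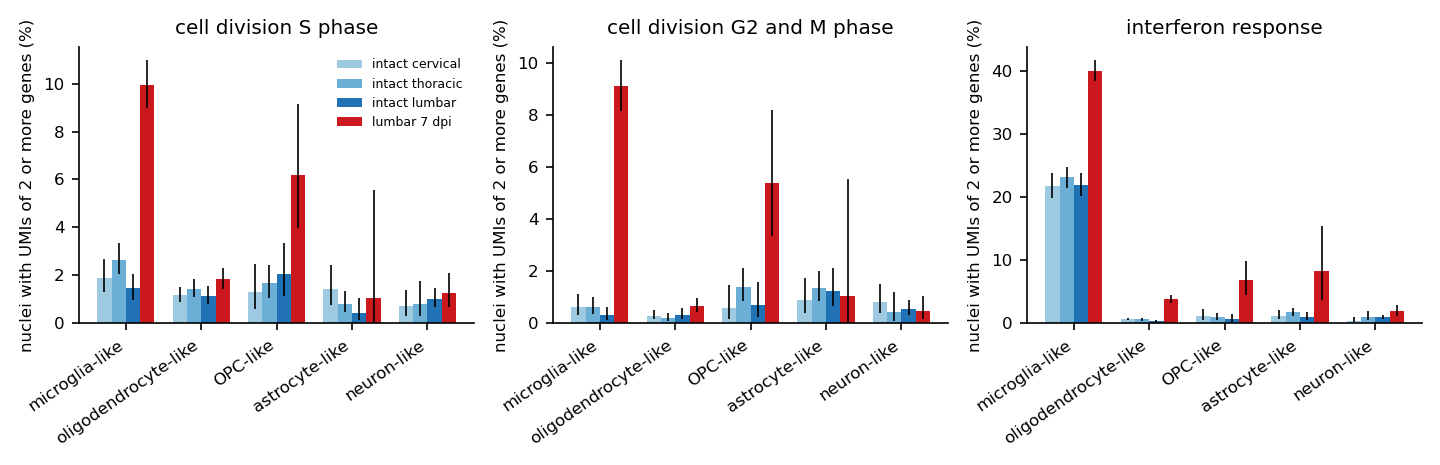
Share of nuclei (%) with a UMI in at least 2 genes of the list after thinning each nucleus to 1000 UMIs, for S phase, G2 and M phase and interferon lists, by class and library; error bars are 95% Clopper-Pearson intervals for counting error only. The division lists stand out at 7 dpi in microglia-like (9.11% for G2 and M phase) and OPC-like nuclei (5.39%), and the interferon list in all glial classes.

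Neuron-like nuclei differed least. With 1.09% of all considered genes higher and 0.472% lower in this class, a count of 0 in a short list is no result about that list, and the values of its members are given as a description. Of 6 considered regeneration genes 0 were called, including GAP43 at 103, 129 and 113 CPM in the intact segments and 105 CPM at 7 dpi. Of 15 synapse genes 0 were called, and SNAP25, a vesicle fusion protein, was at 817 and 721 CPM in the lumbar libraries. Of 14 genes of inhibition and chloride transport 0 were called. SLC12A5, the chloride exporter KCC2, was at 93.0, 105 and 90.8 CPM in the intact segments and 90.0 CPM at 7 dpi, a log2 ratio of -0.01 (-0.07 to 0.05). GAD2, which makes GABA, was at 117 and 74.1 CPM.

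Of 6 considered monoamine receptors, which receive the descending serotonin and noradrenaline fibers, 0 were called, against the same 1.09% and 0.472% of all genes. HTR2C, the serotonin 2C receptor, was at 508, 366 and 536 CPM in the intact segments and 683 CPM at 7 dpi, a log2 ratio of 0.35 (0.33 to 0.37). Of 6 neuropeptides 0 were called. PENK, the precursor of enkephalin, came nearest, at 19.7, 22.7 and 25.7 CPM in the intact segments and 48.4 CPM at 7 dpi, a log2 ratio of 0.91 (0.82 to 1.00).

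Among neuron-like nuclei clustered again without transmitter genes, excitatory-like nuclei made up 25.4% at 7 dpi against 30.9%, 30.9% and 30.2% in the intact segments, a difference from intact lumbar of -4.79 points (-7.81 to -1.66), and lay below all 3. Inhibitory-like nuclei made up 30.6% against 29.3%, 37.7% and 37.3%, inside the intact range. Cholinergic-like nuclei, which include motor neurons, made up 1.95% against 2.20%, 2.15% and 1.44%, inside the intact range. Sub-clusters that could not be named made up 42.1% at 7 dpi against 37.5%, 29.3% and 31.0%, so the named shares also move with how many nuclei could be named. Excitatory-like and inhibitory-like nuclei numbered 286 and 344 at 7 dpi, and 819 and 1013 in intact lumbar. The lower excitatory-like share therefore cannot be told apart from the larger unnamed share. A cluster led by TAC3 and NMU (78 nuclei at 7 dpi, 123 in intact lumbar) was left unnamed and is not among neuron-like nuclei.

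Of the 122 higher genes 66 (54.1%) were called higher in at least 1 glial class, and of the 53 lower genes 25 (47.2%) were called lower in 1. Of those 122 genes 89 were considered in a glial class at all, and of the 53 genes 38 were. Over genes considered in another class, the share called there as well was 74.2% of the higher and 65.8% of the lower genes in neuron-like nuclei. In the 4 glial classes it was 41.6% to 58.3% of the higher and 23.0% to 48.2% of the lower genes. These shares are not on a like footing. Neuron-like calls were set beside 4 glial classes, and glial calls beside the other glial classes and neuron-like nuclei, which had the fewest calls. The difference was not tested. Of 8804 genes considered in both microglia-like and neuron-like nuclei, 531 were higher in the former, 71 in the latter and 39 in both. Lower were 354, 28 and 17. MOV10L1 led the higher genes, at 4.73, 5.71 and 4.33 CPM in the intact segments and 54.2 CPM at 7 dpi, a log2 ratio of 3.64 (3.49 to 3.80). It was higher also in microglia-like (1.64 and 42.3 CPM), oligodendrocyte-like and astrocyte-like nuclei (2.41 and 51.8 CPM). SULT1C3, a sulfotransferase, was at 3.69 and 25.8 CPM in neuron-like nuclei and was higher in OPC-like nuclei too (3.54 and 29.3 CPM). ADAM18 (1.63 and 13.7 CPM), PHLDB3 (3.34 and 24.5 CPM) and PGBD2 (3.17 and 22.4 CPM) followed.

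BMS1, which is needed to make the small ribosomal subunit, was lower in all 5 classes. In neuron-like nuclei it was at 945, 763 and 796 CPM in the intact segments and 229 CPM at 7 dpi, a log2 ratio of -1.80 (-1.83 to -1.76). In microglia-like nuclei BMS1 was at 363 and 82.7 CPM in the lumbar libraries. ANKRD30A was at 157, 142 and 126 CPM in neuron-like nuclei of the intact segments and 17.7 CPM at 7 dpi. SOD2, the mitochondrial superoxide dismutase, was lower in neuron-like nuclei (55.9 and 18.1 CPM) and was not called in astrocyte-like nuclei (67.0 and 127 CPM). Mamu-DPA1, which has near-identical copies, and CYP2C75 were lower as well.

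Of 7273 genes considered in microglia-like, oligodendrocyte-like, OPC-like and neuron-like nuclei together, 17 were higher in all 4 classes and 6 lower. By mean log2 ratio of CPM + 1 the leading higher genes with a symbol were SERPINA3 (4.98), MT2A (3.03), CD74 (2.43), GFAP (2.09), VAT1 (2.08), Mamu-B (2.07), POLE2 (2.02) and CCDC159 (1.86). These mix 2 kinds of gene. SERPINA3, MT2A and GFAP are highest in astrocyte-like nuclei and CD74 in microglia-like nuclei, where CD74 at 1638 CPM stood far above its 16.2 CPM in neuron-like nuclei. VAT1, by contrast, was at 26.1, 35.4, 18.1 and 17.4 CPM at 7 dpi in microglia-like, oligodendrocyte-like, OPC-like and neuron-like nuclei, against 3.28, 4.87, 5.42 and 5.73 CPM in intact lumbar. The animals cannot be told apart from the injury in genes that differ in every class.

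**Figure D5:**
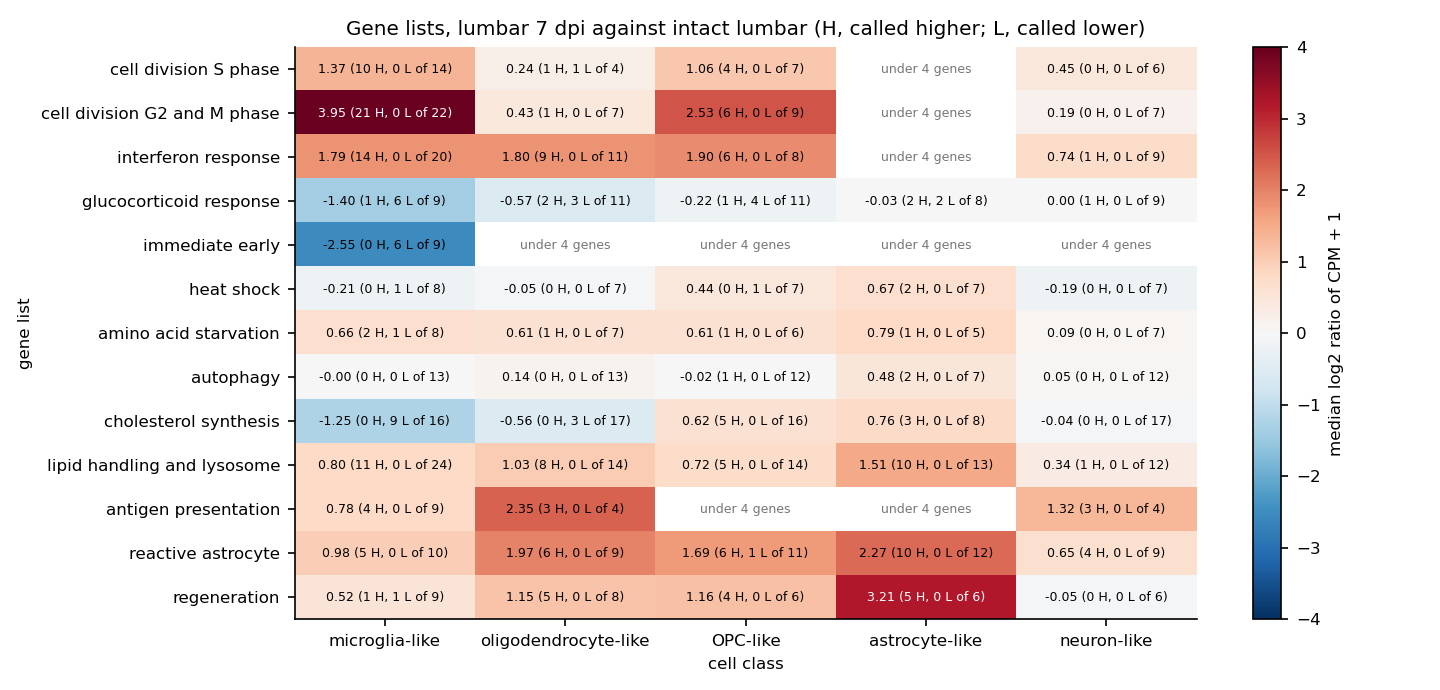
Median log2 ratio of CPM + 1 (7 dpi over intact lumbar) of the considered genes of 13 lists in 5 classes, with the number called higher (H) and lower (L) of those considered; lists with under 4 considered genes are blank. G2 and M phase genes stand highest in microglia-like nuclei (3.95), and cholesterol synthesis genes are negative in microglia-like (-1.25) and oligodendrocyte-like nuclei (-0.56) and positive in OPC-like and astrocyte-like nuclei.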

How the data were processed

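Nuclei from 7 libraries of rhesus monkey spinal cord had been isolated by dounce in lysis buffer and profiled with 10x droplets. The authors aligned reads to Mmul_10 and deposited whole-number UMI counts per gene and nucleus, made with Cell Ranger 6.0.0 per the labels. From these, nuclei with at least 1000 UMIs, over 500 genes, under 10% mitochondrial and under 5% hemoglobin UMIs were kept. The 5% highest Scrublet scores per library were removed (scanpy 1.11.5). The study used a caller with the same 5% rate, and whether the deposited matrices still hold those nuclei is not stated.

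Counts were clustered over all libraries without integration (2000 variable genes, 30 components, 20 neighbours, Leiden resolution 1). Clusters were named from markers. UMIs were summed per class and library. Genes were considered where the mean CPM of both lumbar libraries was at least 5 and the expected UMIs in the smaller class sum were at least 20. Identifiers sharing a symbol were summed. Named genes are the 5 highest and 5 lowest called genes per class by the interval bound nearest 0, with a symbol, at least 50 UMIs and own-class level, plus list examples and genes called in 4 classes. The comparison, members and lists were chosen with earlier results of these data known. The call rule was run on simulated counts, with 199 (OPC-like) or 200 (other classes) of 200 changed genes recovered. Unchanged genes wrongly called were 9 in astrocyte-like, 5 in OPC-like and 0 in other nuclei. Intervals covered 93.0% (astrocyte-like) to 98.0% (oligodendrocyte-like) of the changed genes. Recovery of differences close to 2-fold, or of genes near 5 CPM, was not tested. Calls that arise from differences between animals were not tested either. Alternatives covered the reference, scaling, weighting, doublets, naming, low-value filter, pseudocount, UMI minimum and genes of other classes. Values of some single genes are not reported here, though they count in their lists.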

Additional observations from a re-analysis of the deposited data

Results flagged for a closer look

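Some list genes were called higher in one class and lower in another, each with an own-class level, under the same comparison of 7 dpi with intact lumbar. The difference between classes was not tested, since there is 1 library a side. Values are log2 ratios of CPM + 1. For each of the genes below at least 1 of the opposite calls was lost under an alternative setting. DIAPH3, the formin of the contractile ring, was 6.17 in microglia-like and -2.26 in astrocyte-like nuclei, where it was at 130.4 CPM in intact lumbar and 26.5 CPM at 7 dpi. The astrocyte-like value was -0.42 with each nucleus named alone, and without the clusters led by division genes DIAPH3 was not considered in microglia-like nuclei. HELLS, a chromatin remodeler of S phase, was 1.27 in microglia-like (0.07 without the clusters led by division genes) and -1.24 in oligodendrocyte-like nuclei. MSMO1, a sterol synthesis enzyme, was -2.00 in microglia-like and 1.10 in astrocyte-like nuclei, where it was 0.70 to 0.96 and not called under 3 of 9 alternatives. INSIG1, which holds back sterol synthesis, was -2.23 in microglia-like and 1.04 in OPC-like nuclei, where it was 0.46 to 0.93 and not called under 5 of 9 alternatives, median-of-ratios scaling among them. The feedback regulators DUSP1 and ERRFI1 were -1.45 and -1.40 in microglia-like nuclei, and DUSP1 was 1.03 in oligodendrocyte-like and ERRFI1 2.04 in astrocyte-like nuclei. DUSP1 was 0.64 to 0.91 and not called in oligodendrocyte-like nuclei under 4 of 9 alternatives, median-of-ratios scaling among them, and ERRFI1 was -0.97 and -0.95 and not called in microglia-like nuclei under 2 of 10. GABRA2, a GABA receptor subunit, was 3.59 in oligodendrocyte-like nuclei (1.89 and 33.8 CPM) and -1.27 in astrocyte-like nuclei, where it was -0.49 with each nucleus named alone.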

How the results depend on the processing

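No value of a gene named by rule and no difference in share changed sign under any alternative. Counts of genes could only be kept or moved, and the genes named by rule were chosen for large ratios. Of 490 recomputed values of the 50 genes named by rule, 404 moved by less than their interval and 86 by more. Of the recomputed list counts 1280 stayed within 1.5 times and 120 did not, among them S phase genes in OPC-like nuclei (2 higher with each nucleus named alone) and transport genes in astrocyte-like nuclei (0 to 4 lower). With no filter on low values but 1 UMI, the calls were 812 lower in microglia-like, 909 higher and 283 lower in oligodendrocyte-like, 1463 and 558 in OPC-like, 2868 and 1466 in astrocyte-like, 264 and 130 in neuron-like nuclei, and 53 and 17 in all 4 classes. With a pseudocount of 5 they were 322 lower in microglia-like, 299 higher and 106 lower in oligodendrocyte-like, 340 higher in OPC-like, 57 and 22 in neuron-like nuclei, and 10 higher in all 4 classes. Without genes of other classes, 336 and 105 remained in oligodendrocyte-like nuclei and 7 higher in all 4. Lower calls in neuron-like nuclei came to 81 with the 3 intact libraries averaged as reference and 112 in excitatory-like nuclei alone. With each nucleus named alone, 362 genes were higher in OPC-like nuclei, of which 180 were among the 512.

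Differences in share (percentage points) with each nucleus named alone were 13.3 for microglia-like, 6.22 for oligodendrocyte-like, -5.43 for astrocyte-like, -10.0 for neuron-like and -2.01 for ependymal-like nuclei. With the 3 intact libraries averaged they were 2.76 for oligodendrocyte-like, -5.14 for OPC-like, -10.5 for astrocyte-like, -2.36 for neuron-like, -1.20 for ependymal-like and 0.0907 for T cell-like nuclei. With a minimum of 2000 UMIs they were 20.4 for microglia-like, -13.99 for neuron-like and 0.217 for T cell-like nuclei. The causes were not tested. Sub-clusters of neuron-like nuclei led by glial genes were left out as an alternative chosen after seeing the data, which gave 120 higher and 57 lower. No paired analysis was possible because each group is 1 library. Depth limits the astrocyte-like class most, with 98 nuclei and 792279 UMIs at 7 dpi.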

Other observations

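Counts of heat shock, autophagy and amino acid starvation genes called, 0 to 2 a list and direction, should be read against the shares of all genes called, which were 8.19% higher and 4.76% lower in microglia-like, 5.39% and 1.63% in oligodendrocyte-like, 1.09% and 0.472% in neuron-like and 9.31% and 3.82% in astrocyte-like nuclei. In lists this short they are descriptions. Of 8 considered heat shock genes in microglia-like nuclei 1 was called lower, HSPH1, a co-chaperone (52.4 CPM in intact lumbar and 22.4 CPM at 7 dpi), and of 7 in neuron-like nuclei 0 were called. In astrocyte-like nuclei 2 of 7 were higher, among them BAG3, a chaperone of selective autophagy, at 18.3, 16.3 and 14.1 CPM in the intact segments, cervical to lumbar, and 111 CPM at 7 dpi. Of 13 autophagy genes 0 were called in microglia-like and in oligodendrocyte-like nuclei. The autophagy receptor SQSTM1 was higher in astrocyte-like nuclei (23.3 and 55.5 CPM). Of the amino acid starvation list, PSAT1, an enzyme of serine synthesis, was higher in astrocyte-like nuclei (42.7 and 131 CPM), which was 1 of 5 considered there. In microglia-like nuclei 2 of 8 were higher and 1 lower. The higher ones were SLC3A2, an amino acid transporter chain (6.96 and 16.4 CPM), and PSAT1 (3.69 and 11.8 CPM), which was at 0.09 of its astrocyte-like level, and both were no longer called without the cluster led by MKI67. DDIT4, a brake on mTORC1, was lower, at 209, 107 and 180.4 CPM in the intact segments and 51.5 CPM at 7 dpi.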
